A study of Mus musculus with 24 samples.

Results

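The regions described here are distal H3K4me1 regions that carried H3K4me3 in the peak list of Dnmt3a knockout (KO) lung endothelial cells and not in that of wild-type (WT) cells, here called members. WT and KO H3K4me1 peaks that overlapped by at least 1 bp were merged into 59665 regions, of which 49071 lay over 1000 bp from both ends of every protein-coding gene and are called distal. Of these 49071 distal regions, 4943 overlapped a KO H3K4me3 peak and no WT H3K4me3 peak. The members were thus chosen by the presence or absence of H3K4me1 and H3K4me3 peaks, and the 10.1% of distal regions called in KO only is set by that rule. H3K4me3 was in WT only at 425 distal regions (0.866%), in both genotypes at 2837 and in neither at 40866, and these are the classes used for comparison.

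Enhancers are stretches of DNA away from gene starts that raise transcription of genes on the same chromosome, and their nucleosomes usually carry H3K4me1, with H3K27ac where they are active. H3K4me3 is the usual mark of gene starts, and CG-rich DNA that lacks DNA methylation can recruit the enzymes that deposit it. Dnmt3a is a de novo DNA methyltransferase that can act on enhancers, and a domain through which it reads histone H3 prefers a tail without methylation at lysine 4. H3K27me3 is deposited by the Polycomb system and is usually found at genes that are kept off.

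The marks were mapped by ACT-seq, in which an antibody carries Tn5 transposase to the histone mark and the enzyme inserts sequencing adapters nearby, in endothelial cells sorted from the lungs of Dnmt3a KO and WT mice. There were 8 groups, each a genotype with a mark, of 3 samples each (24 in all), and 1 peak list per group was analysed, on chromosomes 1 to 19 of mm10. The sources used here do not give the allele, the driver of the deletion, the strain or the age of the mice, nor whether the 3 samples of a group came from separate mice. Each difference is therefore between a pair of lists, with no spread between replicates and no test between genotypes. Depth is unknown. Intervals are exact Clopper-Pearson intervals at 95%, which cover counting error only and treat regions as independent.

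The labelled cell type was set against the genes marked in each list. H3K4me3 lay within 1000 bp of an end of 22 of 30 pan-endothelial genes in both genotypes, against 9378 of all 20665 protein-coding genes, 1 of 20 leukocyte genes, 1 of 16 epithelial genes and 0 of 20 mesenchymal genes. The KO list alone had it at a further 2 pan-endothelial, 2 leukocyte, 3 epithelial and 4 mesenchymal genes, against 1426 of all genes. The WT list alone had it at 0 genes of these lists and at 141 of all genes. Genes of other lung cells thus had H3K4me3 more often in the KO list than in the WT list. All genes together did so too, but with a smaller share in KO only, 1426 of 20665. H3K27ac lay at an end of 25 of the 30 pan-endothelial genes in both genotypes, against 9435 of all genes. It was so at 1 of 20 leukocyte, 4 of 16 epithelial and 2 of 20 mesenchymal genes. The part of other lung cells in the members was not tested. The H3K4me3 list was longer in KO, with 22724 peaks of which 11004 overlapped no WT peak, than in WT, with 14984 peaks of which 2704 overlapped no KO peak. H3K27ac had 81112 peaks in WT (median 215 bp) and 44484 in KO (363 bp). H3K27me3 had 20918 in WT (358 bp) and 31022 in KO (425 bp), and H3K4me1 49363 and 48458. Each call of a mark in KO only, in WT only or wider in KO below rests on these unequal lists. With the longer list of each mark cut to the length of the shorter by width, there were 2296 members in place of 4943.

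Some members lie on an annotated start, and 5 of the 300-bp start windows, from 250 bases before to 50 after such a start, are printed here for their range of CG content. Each is overlapped, wholly or in part, by a KO H3K4me3 peak that met no WT H3K4me3 peak anywhere. The sequences are RefSeq windows of GRCm38 (mm10), 5′ to 3′ on the strand of the gene, with every CG dinucleotide, the target of DNA methylation, in capitals.
Abr, chr11:76494446-76494745, minus strand: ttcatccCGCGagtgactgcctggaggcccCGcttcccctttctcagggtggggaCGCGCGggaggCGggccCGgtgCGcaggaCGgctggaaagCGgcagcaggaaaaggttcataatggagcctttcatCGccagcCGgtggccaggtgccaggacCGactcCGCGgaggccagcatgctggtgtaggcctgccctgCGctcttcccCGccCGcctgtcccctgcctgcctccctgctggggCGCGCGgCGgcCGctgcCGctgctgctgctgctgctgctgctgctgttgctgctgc
Tfpi2, chr6:3968326-3968625, minus strand: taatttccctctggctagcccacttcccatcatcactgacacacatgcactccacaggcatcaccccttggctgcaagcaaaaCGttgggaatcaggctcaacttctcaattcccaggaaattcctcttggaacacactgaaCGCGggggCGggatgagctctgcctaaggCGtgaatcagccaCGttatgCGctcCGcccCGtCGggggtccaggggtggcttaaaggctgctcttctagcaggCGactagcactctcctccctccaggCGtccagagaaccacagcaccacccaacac
Ptgs1, chr2:36230176-36230475, plus strand: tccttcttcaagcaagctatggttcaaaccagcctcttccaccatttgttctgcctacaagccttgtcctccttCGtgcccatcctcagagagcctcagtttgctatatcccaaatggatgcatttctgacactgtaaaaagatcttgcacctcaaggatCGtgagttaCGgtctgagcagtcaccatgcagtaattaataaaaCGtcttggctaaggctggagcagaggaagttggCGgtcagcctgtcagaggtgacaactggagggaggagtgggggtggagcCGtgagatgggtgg
Dnm3os, chr1:162217373-162217672, plus strand: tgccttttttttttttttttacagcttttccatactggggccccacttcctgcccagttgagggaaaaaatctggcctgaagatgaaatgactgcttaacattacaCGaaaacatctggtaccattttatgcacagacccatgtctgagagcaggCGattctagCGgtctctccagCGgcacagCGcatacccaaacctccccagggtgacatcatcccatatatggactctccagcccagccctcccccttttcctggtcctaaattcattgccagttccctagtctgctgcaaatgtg
Trim30a, chr7:104446076-104446375, minus strand: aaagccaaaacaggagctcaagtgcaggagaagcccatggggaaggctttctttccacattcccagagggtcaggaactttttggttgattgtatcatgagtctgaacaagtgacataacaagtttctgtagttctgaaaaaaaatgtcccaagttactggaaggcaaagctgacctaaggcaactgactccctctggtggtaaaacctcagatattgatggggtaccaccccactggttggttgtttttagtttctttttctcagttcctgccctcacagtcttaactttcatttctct

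Abr held 25 CGs in its window, and an 825 bp KO-only H3K4me3 peak at chr11:76494265-76495089 covered all 300 bases. Tfpi2, which encodes a secreted inhibitor of serine proteases, held 12 CGs, and a KO-only peak of 784 bp covered 137 bases of the window with 8 of them. Ptgs1, the gene of cyclooxygenase 1, held 6 CGs, and a peak of 488 bp covered only 90 bases with 2 of them. Dnm3os, a noncoding RNA transcribed antisense to Dnm3, held 5 CGs, and a peak of 398 bp covered 167 bases with 4 of them. Trim30a, of the interferon-induced TRIM family, held 0 CGs, and a peak of 783 bp covered the whole window. Among these 5, the stretch under the KO-only peak held from 0 to 25 CGs.

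The H3K4me3 peaks of the members were narrow. The values in this paragraph were used to choose the members, so they are a description with no test. The widest KO H3K4me3 peak at a member had a median width of 241 bp, with quartiles of 166 and 362 bp, while the KO peaks at regions with H3K4me3 in both genotypes had a median of 674 bp and their WT peaks one of 481 bp. The WT peaks of the WT-only class had a median of 230 bp, close to that of the members. Of the members, 37.5% had a peak under 200 bp, 11.05% of 500 bp or more and 1.34% of 1000 bp or more, and 97.3% held a single KO H3K4me3 peak. The peak lay wholly inside the H3K4me1 region at 76.6% of members, covered a median of 37.9% of it, and its centre lay a median of 82.5 bp from that of the region. Members just inside the overlap threshold numbered 10, with an overlap under 10 bp, while 4786 overlapped by 100 bp or more. By distance, the share of H3K4me1 regions with KO-only H3K4me3 was 15.6% over 500 and up to 1000 bp from a gene end, just short of the distance limit, 15.3% over 1000 and up to 1500 bp, just past it, and 9.86% over 2000 bp. Members accounted for 4978 KO-only H3K4me3 peaks, 45.2% of all such peaks.

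**Figure D1:**
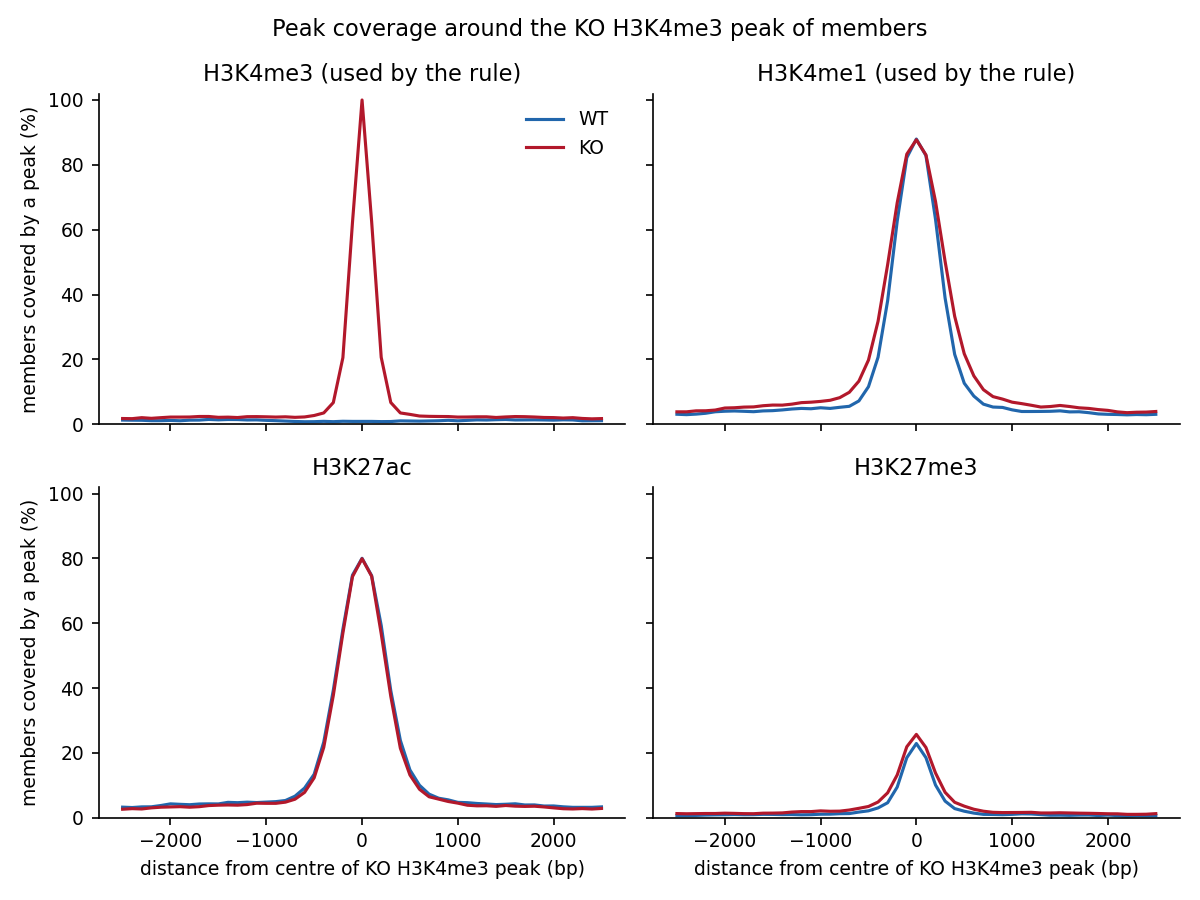
Percent of the 4943 members covered by a peak (vertical axis) by distance in bp from the centre of the KO H3K4me3 peak (horizontal axis), for each mark in WT (blue) and KO (red). H3K27ac covered the centre of 80.03% of members in WT and 79.9% in KO, and H3K27me3 that of 22.9% and 25.7%; H3K4me1 and H3K4me3 were used to choose the members.

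The widest peaks did not bear out the label of a distal enhancer that gained H3K4me3. At 80 members (1.62%) the KO H3K4me3 peak also overlapped a WT H3K4me3 peak just outside the H3K4me1 region, so that a wider peak reached into the region in KO only. These 80 had a median peak width of 1229.5 bp, against 238 bp for the other 4863, and made up 53 of the 66 members with a peak of 1000 bp or more. All of the 10 members with the widest peaks were of this kind, at Plxna4, Amotl1, Lrrc58, Inafm2, Tox3, Prickle1, Bbc3, Mtss1, Larp1 and Cd81. Plxna4, which encodes a semaphorin co-receptor, had the widest peak, 2479 bp, reaching a region of 354 bp at chr6:32586223-32586576 that lay 1616 bp from a gene end and carried no H3K27ac peak. Cd81, the gene of a tetraspanin, had 1883 bp reaching a region of 215 bp, also with no H3K27ac. The 5 widest members without H3K27ac (Plxna4, Cd81, Cdc25a, H2-D1 and Chic2), the 5 widest with H3K27me3 (Fzd1, Pdgfa, Fign, Rora and Lifr) and the 5 widest with H3K4me1 in KO only (Plxna4, Cd81, Ino80d, Ntn1 and Tmem132a) were likewise all of this kind. At Fzd1, a Wnt receptor gene, the KO H3K4me3 peak of 1717 bp lay with H3K27me3 of 722 bp in WT and 2638 bp in KO. At Pdgfa, a growth factor gene, the peak of 1697 bp lay with H3K27me3 of 770 bp in WT and 692 bp in KO. Of the 80, 30.0% had H3K4me1 in both genotypes and 50.0% had H3K27ac in both, below the other members at 88.1% and 79.95%.

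Members whose KO H3K4me3 peak overlapped no WT peak and lay over 1000 bp from gene ends were therefore ranked separately, a choice made after the values were seen. The widest such peak, 1335 bp, lay at chr12:86823944-86825330, with Lrrc74a as the nearest gene 54919 bp away. H3K27ac there was 1454 bp wide in WT and 1356 bp in KO, and H3K27me3 398 and 676 bp. The next, of 1294 bp, lay 202556 bp from Sgk1, a serum- and glucocorticoid-induced kinase gene, with H3K27ac of 1040 bp in WT and 792 bp in KO and H3K27me3 of 311 and 208 bp. The third, of 1155 bp, lay inside Mctp1, at a region 1605 bp from a gene end. H3K27ac there was narrow, 223 bp in WT and 181 bp in KO, in peaks that did not overlap. H3K27me3 was 1388 and 1737 bp wide, and H3K4me1 967 and 150 bp. A peak of 1101 bp lay 207898 bp from Fat4, a protocadherin gene, with H3K27ac of 1116 and 1077 bp and H3K27me3 of 888 and 869 bp. These 4 regions thus held all 4 marks in KO, and in WT the same set without H3K4me3. Inside Zbtb20, a zinc finger repressor gene, a peak of 1098 bp lay with H3K27ac of 1429 bp in WT and 1271 bp in KO and no H3K27me3 peak. Inside Abcb1a, the gene of a drug efflux transporter, a peak of 1085 bp lay with no H3K27ac or H3K27me3 peak in either genotype.

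H3K27ac, which the rule did not use, was in both genotypes at most members. An H3K27ac peak was listed in both genotypes at 3928 of 4943 members (79.5%, interval 78.3 to 80.6), against 92.1% (91.0 to 93.0) of regions with H3K4me3 in both, 66.4% (61.6 to 70.8) of those with it in WT only and 29.9% (29.5 to 30.3) of those without it. Only the KO list had H3K27ac at 241 members (4.88%) and only the WT list at 271 (5.48%), where 8.68% and 11.6% of all distal regions were called so. A further 503 members (10.2%) had no H3K27ac peak in either list. The share of members with H3K27ac in KO only was thus below that of all distal regions, and close to the share of members with it in WT only. Few members were open to such calls, since most had H3K27ac in both. Of the 744 members without WT H3K27ac, 241 had it in KO, a larger share than the 4257 of 24326 distal regions. Of the 4199 members with WT H3K27ac, 271 lacked it in KO, a smaller share than the 5705 of 24745 distal regions.

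The width of H3K27ac at members was also near equal in KO and WT. At the members with H3K27ac in both, the median width was 610 bp in WT and 588 bp in KO, and at regions without H3K4me3 but with H3K27ac in both it was 429 and 417 bp. Over the 3662 members with 1 H3K27ac peak in each genotype, the median ratio of KO to WT width was 0.976. H3K27ac was wider in KO at 45.4% of those members (43.7 to 47.0), where 45.6% of all such distal regions were called wider.

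The members' share of distal regions went up with the width of the H3K27ac peak already present in WT. It was 3.06% (2.85 to 3.28) where WT had no H3K27ac, 6.04% in the decile with the narrowest WT peaks (95 to 153 bp), 13.6% in the fifth decile (348 to 428 bp) and 28.0% (26.2 to 29.8) in the ninth (723 to 896 bp). In the widest decile it was 26.7%, where regions with H3K4me3 in both genotypes reached 35.0%. The WT-only class went from 0.440% without H3K27ac to 1.98% in the widest decile. Wider regions have more bases in which to overlap a peak, and the members' share also went from 3.12% in the decile of the narrowest H3K4me1 regions to 22.2% in that of the widest. Among regions of 500 bp to under 800 bp alone, the share still went from 3.95% without WT H3K27ac to 27.1% (24.7 to 29.7) in the eighth decile of width, and was 16.5% in the widest, where H3K4me3 was in both genotypes at 51.7%.

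**Figure D2:**
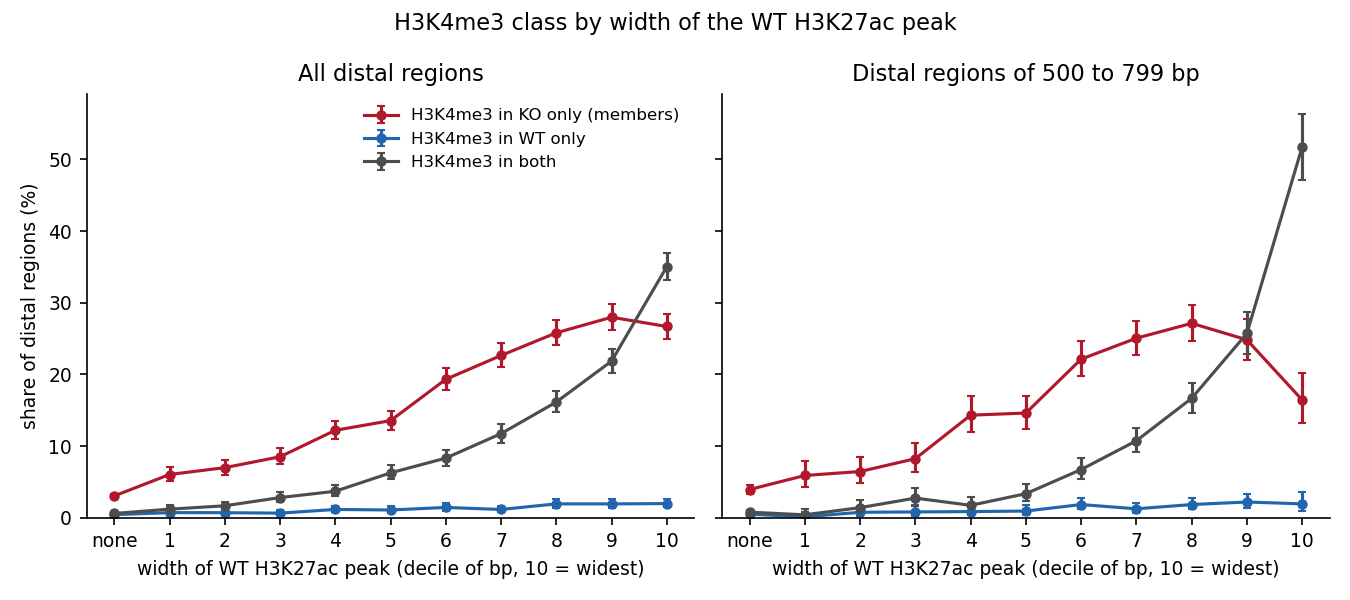
Share of distal regions (%, vertical axis) with H3K4me3 in KO only (red), WT only (blue) or both (grey), by decile of the WT H3K27ac peak width (horizontal axis), for all distal regions (left) and those of 500 bp to under 800 bp (right); bars are exact 95% intervals for counting error. The KO-only share goes from 3.06% without WT H3K27ac to 28.0% in the ninth decile over all distal regions.

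H3K27me3, the Polycomb mark, was also listed more often at members than at distal regions without H3K4me3. An H3K27me3 peak was listed in either genotype at 1693 members (34.3%, 32.9 to 35.6), against 6.15% of regions without H3K4me3, 24.5% of the WT-only class and 60.1% of regions with H3K4me3 in both. In the WT list alone it was at 26.1% of members (24.9 to 27.3), against 3.95% of regions without H3K4me3. Only the KO list had H3K27me3 at 404 members (8.17%) and only the WT list at 286 (5.79%), where 3.25% and 1.90% of all distal regions were called so. The H3K27me3 peaks were short, with a median of 314 bp in WT and 387 bp in KO, and their coverage centred on the KO H3K4me3 peak. At the centre of that peak 22.9% of members were covered by H3K27me3 in WT, and 300 bp to the right of it 5.16%. Where each genotype had 1 H3K27me3 peak, it was wider in KO at 68.4% of members, where 68.5% of all such distal regions were called wider. The lists include no control without a histone antibody. Tn5 insertion apart from the mark was therefore not tested as a source of the H3K27me3 peaks.

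H3K27me3 and H3K27ac were found together at members. Among members with H3K27ac in both genotypes, 34.8% (33.3 to 36.3) had H3K27me3 in either, against 9.08% (8.58 to 9.61) of regions without H3K4me3, 22.7% (17.9 to 28.0) of the WT-only class and 59.8% (57.9 to 61.7) of regions with H3K4me3 in both. Among regions of 500 bp to under 800 bp with H3K27ac in both, these shares were 36.3%, 9.60%, 25.7% and 66.6%. Seen from the other side, 33.3% of the 4104 distal regions with H3K27ac in both genotypes and H3K27me3 in either were members, against 17.1% of the 14936 with H3K27ac in both and no H3K27me3. Without H3K27ac, 14.1% of the 1289 regions with H3K27me3 were members, against 1.71% of the 18780 with neither mark. The peak lists do not show whether marks at a region lay on the same chromosomes or in the same cells. Whether Tn5 insertion apart from the marks had a part in their being listed together was not tested, for want of a control list.

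**Figure D3:**
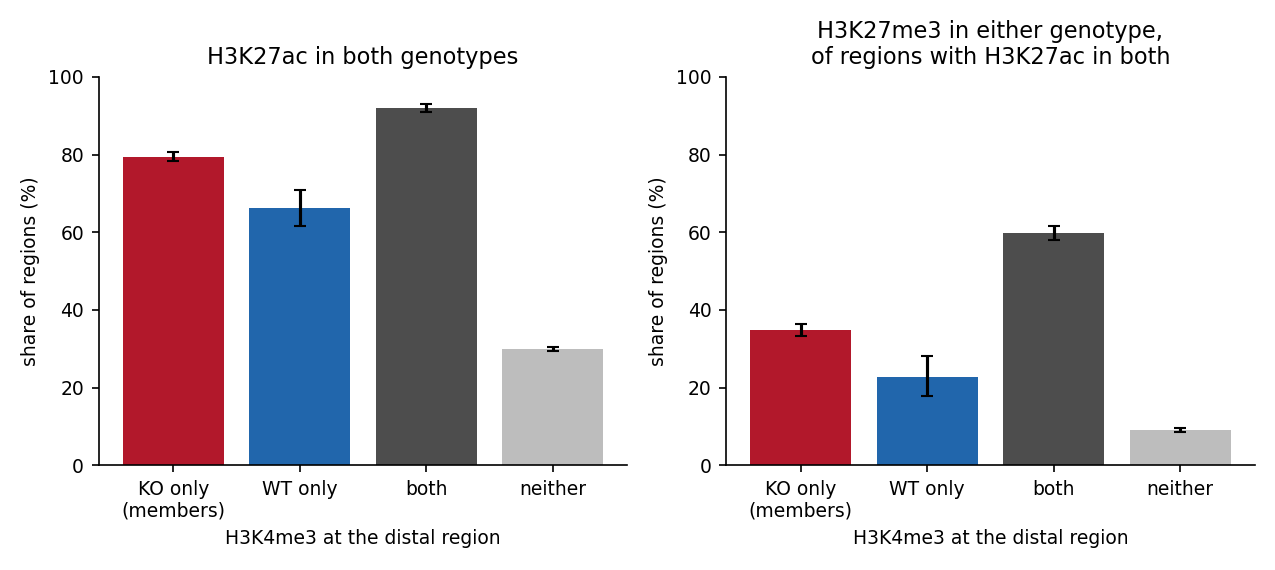
Share of distal regions (%, vertical axis) by their H3K4me3 class (horizontal axis) with H3K27ac in both genotypes (left) and, of those, with H3K27me3 in either genotype (right); bars are exact 95% intervals for counting error. Members have values of 79.5% and 34.8%, between regions with H3K4me3 in both (92.1% and 59.8%) and in neither (29.9% and 9.08%).

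H3K4me1 defined the regions, so its values at members are a description. It was in both genotypes at 87.1% of members. A further 5.30% had it in the KO list alone and 7.57% in the WT list alone, where 22.1% and 18.4% of all distal regions were called in KO only and WT only. The median KO over WT width at members with 1 peak each was 1.15, and H3K4me1 was wider in KO at 72.5% of them, where 68.1% of all such distal regions were called wider.

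Members lay nearer to protein-coding gene ends than distal regions in general, and few lay on an annotated start. The median distance to the nearest gene end was 20301 bp, against 27237 bp over all distal regions and 30013 bp over those without H3K4me3. The WT-only class lay nearer still, with a median of 16257 bp. The median of the members was between those of regions with H3K4me3 in both (8271 bp) and of regions with H3K27ac in both and no H3K4me3 (36686 bp). Of the members, 57.3% overlapped a protein-coding gene, against 60.9% of all distal regions, and 18.6% lay within 5000 bp of a gene end, against 14.9%. Exons and introns were not separated. A start window of a protein-coding gene (inside a gene, since its ends were barred) or of a lncRNA gene lay on 264 of the 4733 members outside chromosome 18 (5.58%, 4.94 to 6.27), against 31.4% of regions with H3K4me3 in both, 5.08% of the WT-only class and 1.58% of regions without H3K4me3. Without these 264, H3K27ac was in both genotypes at 79.7% of members, against 79.5% with them.

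The start windows on members were poorer in CG than those on regions with H3K4me3 in both genotypes and richer than those on regions without H3K4me3. Protein-coding windows held a median of 12 CGs on members (138 windows), 23 on regions with H3K4me3 in both (768 windows) and 7 on those without it (210 windows), while all 20085 windows had a median of 14. The lncRNA windows held medians of 7 on members (159 windows), 18 and 4, with 4 over all 11311 windows. The WT-only class had few windows, with a median of 8 over 10 protein-coding windows and 4.5 over 14 lncRNA windows. Windows with 20 or more CGs made up 29.0% of the protein-coding windows on members, 59.9% of those on regions with H3K4me3 in both and 10.0% of those on regions without it. The letters GGAAGT, the core that ETS factors bind, were found on either strand in 25.4% of protein-coding windows on members and 24.99% of all protein-coding windows. The letters TGANTCA, the AP-1 motif, were in 9.42% and 7.06%. Starts of 1 gene can share a window, so windows are not independent.

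**Figure D4:**
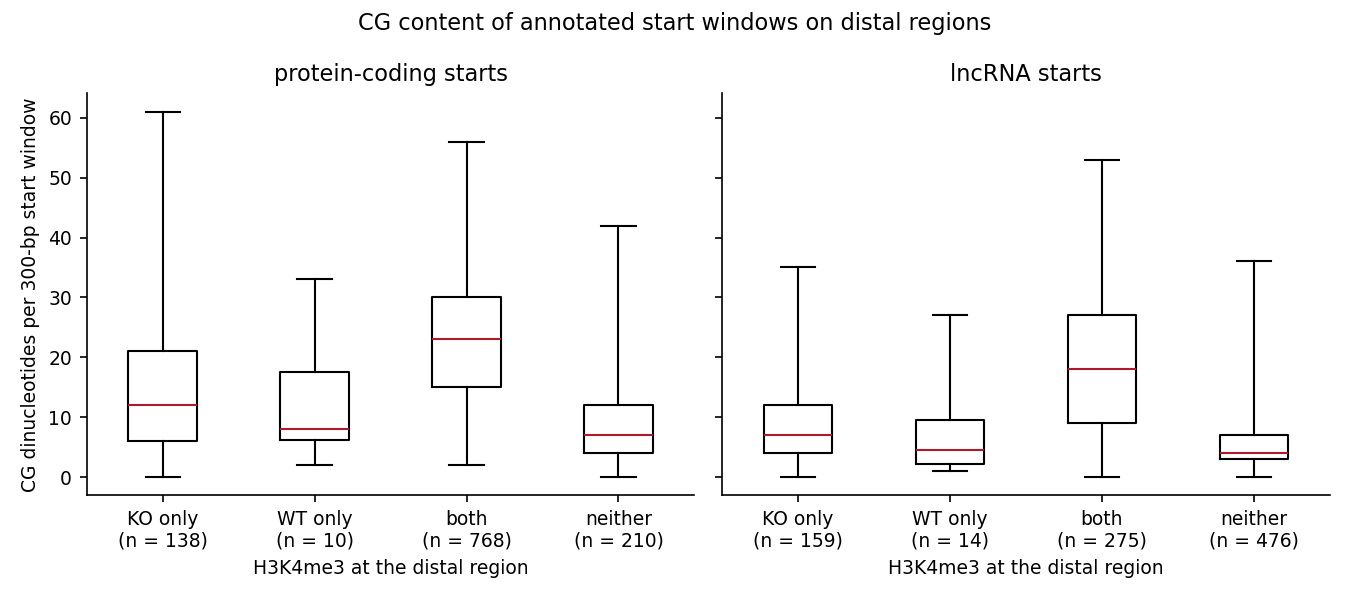
CG dinucleotides per 300-bp annotated start window (vertical axis) for protein-coding (left) and lncRNA (right) starts on distal regions, by H3K4me3 class (horizontal axis); the box spans the quartiles, the red line is the median and the whiskers reach the lowest and highest window. Windows on members (KO only) have medians of 12 and 7, between those of regions with H3K4me3 in both (23 and 18) and in neither (7 and 4). The WT-only class has medians of 8 and 4.5, over 10 and 14 windows.

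Of 919 annotated miRNA hairpins on these chromosomes, 5 overlapped members: Mir199a-2, Mir6546, Mir7671, Mir6387 and Mir3086. No count over all distal regions is given to set beside these 5, so they are a description. The member at Mir199a-2 is the one that holds the Dnm3os start printed above, since Dnm3os is the host transcript of this miRNA. The region ran over chr1:162217332-162218079, with H3K27ac of 643 bp in WT and 573 bp in KO, and H3K27me3 of 288 bp in WT and none in KO. The KO H3K4me3 peak, chr1:162217506-162217903, covered part of the hairpin at chr1:162217814-162217923. Its mature sequences (RefSeq, GRCm38) are shown with the seed, bases 2 to 8, in capitals.
mmu-miR-199a-5p: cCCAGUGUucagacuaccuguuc
mmu-miR-199a-3p: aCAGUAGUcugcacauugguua

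Each region was given to the gene it overlapped or, failing that, the gene with the nearest end, which need not be the gene it acts on. The 4943 members fell to 3019 genes, 14.6% of all 20665 protein-coding genes, and 1947 of these had 1 member. Of the genes given a member, 61.7% carried H3K4me3 at their own ends in both genotypes. The share was 54.1% for genes given a distal region and no member. Counted by region, the order was reversed, with 64.5% of members (63.1 to 65.8) given to such a gene, against 66.2% of all distal regions. A further 8.13% of members (7.39 to 8.93) belonged to a gene with H3K4me3 at its ends in KO only, against 6.77% of all distal regions.

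Some genes and neighbourhoods held many members. Bach2, a transcriptional repressor gene, held 9 members among 49 distal regions inside it, and Tcf4, a basic helix-loop-helix factor gene, held 9 among 63. Ctif, a translation factor gene, held 9 among 33 and Tns1, the gene of the focal adhesion protein tensin, 8 among 33. Palld, Dock9, Arhgap26 and Nfatc1 held 7 each, and Stard13 and Gse1 held 6 each. Long genes hold more regions, and against the 10.1% of distal regions that were members Nfatc1, the gene of a calcineurin-regulated factor, held 7 of 23 in 107 kb while Arhgap26 held 7 of 76 in 775 kb. Members separated by at most 12.5 kb formed runs, and 26.0% of members were in a run of 2 or more. Runs were chained from members and start and end on one, so members are dense in them by construction. Runs of the other classes were not counted. The run inside Bach2 held 6 members among 8 distal regions over 29.6 kb, all with H3K27ac in both genotypes. A run over Ptprr and Ptprb, the gene of the endothelial phosphatase VE-PTP, held 6 among 11 over 42.0 kb, and a run at Dlgap1 held 6 of 6 over 18.1 kb. The other 2 of the 5 largest runs, at Mtarc2 and at Zfp217, held 5 members each.

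The gene lists were chosen with earlier results known, so their counts are descriptions. Members were 18.9% (13.3 to 25.7) of the distal regions given to markers of general capillary cells, the capillary type that acts as progenitor in the lung, 13.2% (10.2 to 16.7) for pan-endothelial genes, 13.7% for arterial genes, 16.3% for venous genes, 12.6% for aerocyte genes and 11.8% for lymphatic genes. Over all distal regions the share was 10.1%. Among distal regions with H3K27ac in both genotypes, 20.6% were members in all, against 31.7% (21.9 to 42.9) for general capillary genes. It was 30.1% (20.5 to 41.2) for arterial, 26.3% (13.4 to 43.1) for venous and 24.3% (18.7 to 30.6) for pan-endothelial genes. For mesenchymal genes it was 23.5% (6.81 to 49.9), for epithelial genes 16.7% (0.421 to 64.1) and for leukocyte genes 7.14% (0.181 to 33.9). Of these intervals, only that of general capillary genes lay above 20.6%. Over all their distal regions, the venous, arterial, aerocyte and lymphatic lists had intervals that included 10.1%. For genes of other lung cells, members were 8 of 53 distal regions for mesenchyme (15.1%, 6.75 to 27.6), 2 of 13 for epithelium (15.4%, 1.92 to 45.4) and 2 of 36 for leukocytes (5.56%, 0.680 to 18.7). The mesenchymal and epithelial shares were thus no lower than those of most endothelial lists, over few regions. A member was given to 10 of the 14 general capillary genes, against 3019 of the 9040 genes given a distal region. Of the 14, Plvap was given no distal region. Genes given more regions have more chances of a member, and these 14 were given 169. Sema3c, with 11 distal regions, had no member. Hpgd had 5 among 19 distal regions, Tmem100 5 among 22, Aplnr 4 among 8, Cd93 4 among 25, Ptprb 4 among 12 and Kit 3 among 29.

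**Figure D5:**
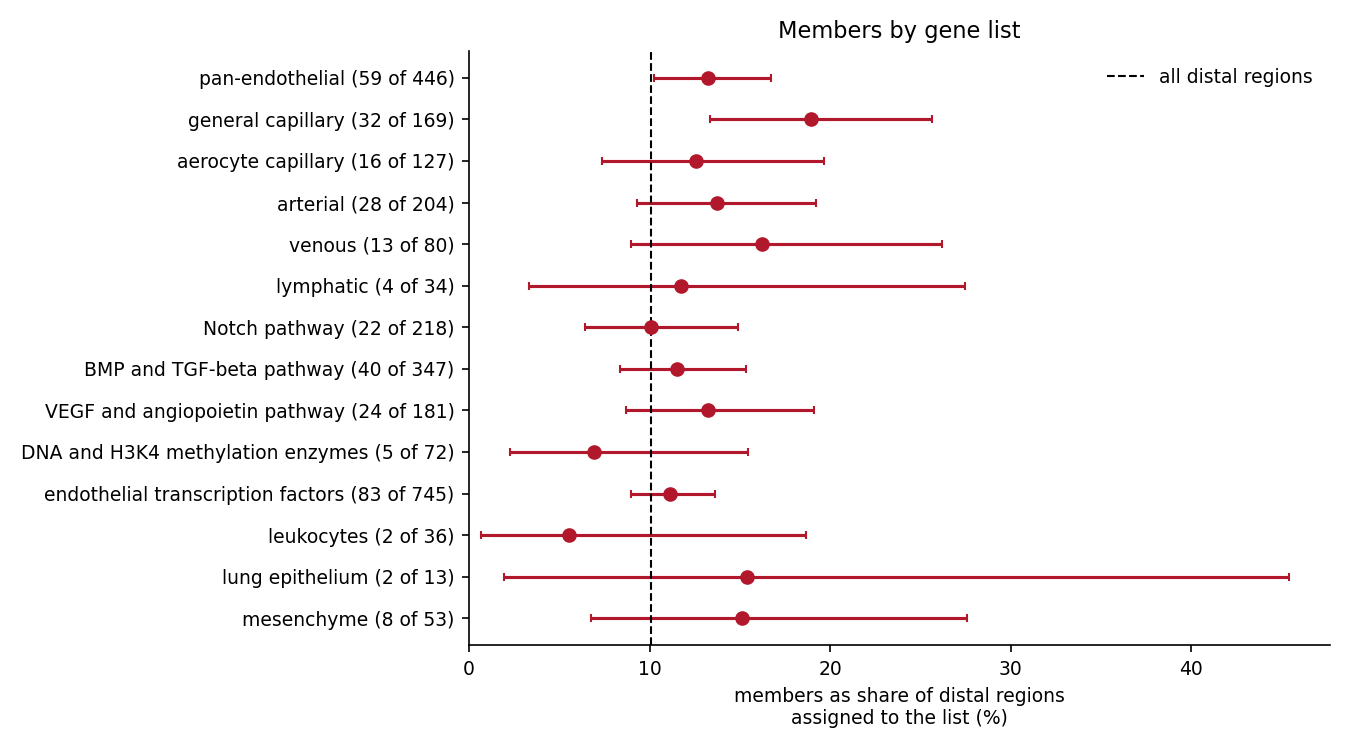
Members as a share of the distal regions given to each gene list (%, horizontal axis), with exact 95% intervals for counting error and, beside each list, the number of members of the number of distal regions. The dashed line marks all distal regions, 10.1%. The general capillary list has the highest share, 18.9%, and its interval lies above the line, as does that of the pan-endothelial list (10.2 to 16.7).

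Among pan-endothelial genes, Cdh5, the gene of VE-cadherin, had 5 members among 28 distal regions. Inside the gene, at chr8:104121598-104122524, a KO H3K4me3 peak of 703 bp lay with H3K27ac of 874 bp in WT and 797 bp in KO and H3K27me3 of 489 and 622 bp. Outside it, at 1581, 5354 and 61707 bp from the gene, KO H3K4me3 peaks of 220, 286 and 240 bp lay with H3K27ac and H3K27me3 in both genotypes. The fifth member, inside the gene, had a peak of 141 bp, H3K4me1 in KO only and neither H3K27ac nor H3K27me3. So 4 of the 5 Cdh5 members carried both H3K27 marks in both lists. Kdr, the main VEGF receptor gene, had 1 member among 31 distal regions, with a KO H3K4me3 peak of 595 bp and H3K27ac of 1090 bp in WT and 863 bp in KO.

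Endothelial transcription factor genes together were near the background, with 83 of 745 distal regions (11.1%, 8.97 to 13.6). A member was found at 24 of the 32 genes, against 3019 of the 9040 genes given a distal region. Of the 32, Junb was given no distal region. Foxf1, with 15 distal regions, and Mef2a, with 14, had no member. Tcf4 had 11 among 81, of which 2 lay outside the gene, and Erg, an ETS factor gene central to endothelial identity, had 7 among 25. All 7 Erg members had H3K27ac in both genotypes. Their KO H3K4me3 peaks were 126 to 431 bp wide, and 4 carried H3K27me3 in either list. Ets1 had 6 members among 56, with KO H3K4me3 peaks of 208 to 614 bp, and 5 of them had H3K27ac in both. Foxp1 had 6 among 75, and Epas1, the gene of the hypoxia factor HIF-2alpha, 5 among 26, none of these 5 with H3K27me3.

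The lists of ligand and receptor genes had shares near the 10.1% of all distal regions, and their intervals included it. In the VEGF and angiopoietin list members were 24 of 181 (13.3%, 8.68 to 19.1), led by the receptor gene Flt1 with 5 among 32, the semaphorin receptor gene Plxnd1 with 4 among 11 and the ligand gene Sema3f with 4 among 8. In the Notch list they were 22 of 218 (10.1%), with 6 among 49 distal regions at the coactivator gene Maml3 and 5 among 43 at Maml2. The receptor gene Notch1 had 3 among 13 and the ligand gene Dll4 1 among 5. In the BMP and TGF-beta list they were 40 of 347 (11.5%), with 6 among 29 at the receptor gene Acvr2a and 4 among 16 at the ligand gene Bmp7. The 6 members given to Acvr2a lay outside the gene, from 83202 to 1124091 bp away. At Bmp7, 1 of 4 members had H3K27ac in both and 3 had H3K27me3 in either. Other genes of these lists had no member, such as Tek with 18 distal regions, Hes1 with 36 and Bmp2 with 21.

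Arterial genes included Efnb2, the ephrin-B2 ligand gene, with 6 members among 48, all with H3K27ac in both genotypes, and the netrin receptor gene Unc5b with 5 among 14. The largest Unc5b peak, 698 bp, lay with H3K27ac of 1510 bp in WT and 1111 bp in KO. Among aerocyte genes, Ednrb, an endothelin receptor gene, had 5 among 25, and a KO H3K4me3 peak of 848 bp there lay 35545 bp outside the gene with H3K27ac of 663 bp in WT and 498 bp in KO. Among venous genes Nr2f2 had 3 among 11 and Ptgs1 3 among 8. The Nr2f2 member 5352 bp from the gene had H3K27ac of 496 bp in WT and none in KO, with H3K27me3 of 521 bp in WT and 2535 bp in KO. The single member at the lymphatic regulator gene Prox1 had a KO H3K4me3 peak of 633 bp, H3K27ac of 396 bp in WT and none in KO, and H3K27me3 of 763 and 707 bp. These 2 members differ in H3K27ac between the lists, which most members did not. The whole H3K27ac list was shorter in KO, with 44484 peaks against 81112 in WT.

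Genes of the DNA methylation and H3K4 methylation machinery had 5 members among 72 distal regions (6.94%, 2.29 to 15.5, an interval that includes 10.1%), and 3 of the 5 lay inside Dnmt3a itself. These 3, at chr12:3833472-3835215, chr12:3855600-3856661 and chr12:3887508-3888430, had KO H3K4me3 peaks of 521, 755 and 394 bp and H3K27ac in both genotypes. Of the 17 distal regions given to Dnmt3a, 11 had H3K4me3 in neither genotype and 3 in both. The other 2 members were at Mbd2 and Setd1b.

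Members outnumbered the WT-only class 11.6 to 1 with the lists as deposited. Whether peaks were called after scaling to the yeast nuclei handled in parallel is not stated in the sources used here. With the longer list of each mark shortened to its widest peaks, so that KO and WT had equal numbers, there were 2296 members (4.72%) and they outnumbered the WT-only class 3.34 to 1. In that setting 81.0% of members still had H3K27ac in both genotypes, and 40.02% of these had H3K27me3 in either, against 28.6% and 10.5% of regions without H3K4me3.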

How the data were processed

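The data are the authors' deposited peak lists, which give each peak's position on its chromosome and its width in bp, without a score or height. Positions and widths fall under the unit class other, were deposited by the authors and entered as they stand. The submitters' processing notes name MACS2 2.1.2.1, Bowtie2 2.2.6, Trim Galore 0.4.4, deepTools 3.1.1, cutadapt 1.14 and SAMtools, and the builds mm10 and R64, of yeast, whose nuclei were handled in parallel per the labels' protocols. No peak threshold, pooling of samples or scaling to yeast reads is stated in the sources used here, and depth is unknown. A peak missing from a list can be one just under its threshold.

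A region carried a mark where a peak overlapped it by at least 1 bp. Gene ends were those of 20665 protein-coding genes of GRCm38.p6 (mm10), without strand or exons. Start windows came from RefSeq (GRCm38), 31396 in all and none on chromosome 18. Shares carry exact Clopper-Pearson intervals at 95%, for counting error only. No p-value was computed. The overlap code was tested on simulated lists. Software was pandas 2.3.3, scipy 1.17.1, numpy 2.4.6, matplotlib 3.10.9 and Python 3.11.15.

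The members and the 14 gene lists, with 243 of 249 genes found, were chosen with earlier results of these data known. Named members were the 10 with the widest KO H3K4me3 peak, the 5 widest without H3K27ac, with H3K27me3 and with H3K4me1 in KO only, the 10 genes with most members inside, the 5 largest runs, Dnmt3a, and up to 6 genes a list. Symbols starting with Gm or LOC or ending in Rik were passed over. Others, including the widest peaks away from WT peaks and gene ends, start windows, miRNAs, Kdr, Dll4, Notch1, Mbd2 and Setd1b, were named after their values were seen.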

Additional observations from a re-analysis of the deposited data

How the results depend on the processing

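No list pairs samples and none holds values per sample. No paired analysis was possible because each group has 1 peak list, and leaving out a replicate could not be run for the same reason. Depth and peak height limit every share in a way that these lists do not show. Of 10 values recomputed under 10 other settings each, 65 moved by less than their counting interval or, for the number of members, by less than 1.5 times, and 35 moved by more; the ratio of members to WT-only regions stayed above 1 in all 10.

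Without peaks under 200 bp there were 3203 members (7.876% of distal regions), 9.257 per WT-only region, with H3K27ac in neither genotype at 9.335%, H3K27me3 in either at 36.81% and a median KO H3K4me3 peak of 329 bp. With equal numbers of the widest peaks there were 2296 (4.724%), 3.337 per WT-only region, with H3K27ac in both at 80.97% and in neither at 9.277%, H3K27me3 in either at 39.63%, a median peak of 374 bp and a KO over WT H3K4me1 width of 1.136. Over 5000 bp from gene ends, members were 9.64% of distal regions, with H3K27ac in both at 82.98% and in neither at 8.101%, H3K4me1 in both at 89.86% and 55.09% in protein-coding genes. With the ends of genes of every class, they were 9.788%, and 59.62% lay in protein-coding genes. With no WT H3K4me3 peak within 1000 bp, they were 9.501%, with H3K27ac in both at 80.82% and H3K4me1 in both at 89.00%. With H3K4me1 merged across 500 bp, they were 10.88%, with H3K27ac in both at 80.74% and in neither at 9.317%, and H3K4me1 in both at 89.01%. Among regions with H3K4me1 in both genotypes (100% by construction), they were 14.76% and 12.97 per WT-only region, with H3K27ac in both at 87.02% and in neither at 4.992%. H3K4me1 in both was at 88.13% with an overlap of 100 bp and at 88.07% for members with a wholly KO-only H3K4me3 peak, a setting chosen after seeing the data, as was leaving out start windows. Apart from the settings that drop peaks, regions or overlaps by construction, the cause of these moves was not tested.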
